A study of Cavia porcellus with 18 samples.

Results

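Neighbouring CG sites inside H3K4me1 peaks of guinea pig hippocampus were compared by the distance between them, to describe how far the methylation level of a site is shared by the sites around it on H3K4me1-bound DNA. A member is a CG site with at least 1 other measured site of the same H3K4me1 peak at a distance of 2 to 5000 bases. Of the 167387 distinct CG sites measured in both bisulfite assays, 147266 (88.0%) were members. They lay in 27005 of 327682 H3K4me1 peaks and formed 896557 pairs. A further 17608 peaks held a lone measured site and gave no pair. With sites 1 base apart left out, the nearest other member of the peak lay at a median of 33 bases.

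The tissue was the hippocampus of 3 male guinea pigs (Cavia porcellus), wild type and 12 weeks old, for which no treatment is named. In H3K4me1 ChIP-bisulfite (3 libraries, 1 per animal), chromatin fixed with formaldehyde and sonicated was precipitated with an antibody against H3K4me1 and the DNA was then treated with bisulfite. In RRBS (6 libraries, read at 50 and at 100 bases), DNA of the whole tissue was cut with MspI and ApeKI before the bisulfite step. The peaks came from 3 libraries of H3K4me1 ChIP-seq. The deposited levels hold 1 value per site and assay for all animals together, so no spread between animals and no test over animals could be computed, and the correlations below are descriptions. Hippocampus holds neurons, glia and vessel cells, and the levels mix them. Marker genes of these cell types were not checked, since the sources used here do not pair the gene identifiers of the files with symbols.

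In mammals the DNA methyltransferases add a methyl group to the C of a CG, and methylation is copied to both strands of the CG when DNA is replicated. Neighbouring CGs are often in a like state, most of all in CG islands, which stay unmethylated over long stretches. H3K4me1 marks enhancers and the flanks of promoters, where methylation is often intermediate or changes over short distances. Bisulfite turns unmethylated C into U, which is read as T, so a sequenced molecule gives the state of each of its Cs on the strand it came from. Sites close together can thus be read on the same molecule.

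The RRBS level of a site rested on a median of 17 reads and at least 10. For ChIP-bisulfite no reads per site were given. The authors' table of peak averages listed, per line, a median of 15.97 ChIP-bisulfite reads per C position (quartiles 14.0 and 17.92, lowest 10). ChIP-bisulfite levels were exactly 0 or 100 at 66.6% of the sites and RRBS levels at 36.7%. In 8 peaks more than 100 sites were measured, and these 8 gave 421205 of the pairs (47.0%). A lone peak on scaffold_927 gave 33.7% of all pairs, 40.8% of those over 1000 bases apart and 5.93% of those up to 10 bases apart. Values are therefore given over all pairs and, where it matters, over the 475352 pairs of the other peaks.

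ChIP-bisulfite levels of close sites were alike, and the likeness was lower at each longer distance up to 2000 bases. At 2 to 10 bases Spearman's rho between the levels of both sites was 0.727 over 28941 pairs in 10815 peaks. It was 0.674 at over 10 to 25 bases, 0.572 up to 50, 0.506 up to 100 and 0.428 up to 200 bases. Between 200 and 500 bases it was 0.256, between 500 and 1000 bases 0.146, and between 1000 and 2000 bases 0.111. At over 2000 to 5000 bases rho was 0.127 over 326431 pairs. The level of a site thus carried most of its relation to a neighbour at the shortest distances, with a low plateau beyond 1000 bases. Pairs share sites, peaks, animals and libraries, so the number of pairs is not a number of independent observations.

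RRBS gave a higher curve of the same shape over the same pairs. Its rho was 0.846 at 2 to 10 bases, 0.818 up to 25, 0.765 up to 50, 0.677 up to 100 and 0.572 up to 200 bases. It was 0.412 between 200 and 500 bases, 0.290 between 500 and 1000, 0.251 between 1000 and 2000 and 0.258 beyond. ChIP-bisulfite was below RRBS in each of the 9 bins. Within each of the 10 scaffolds with the most sites, ChIP-bisulfite rho at 2 to 10 bases lay between 0.686 and 0.758 (median 0.729, SD 0.0256, n = 10 scaffolds) and RRBS rho between 0.801 and 0.874 (median 0.843, SD 0.0212, n = 10 scaffolds). These ranges did not overlap, and ChIP-bisulfite was the lower in 10 of 10 scaffolds. At over 500 to 1000 bases the ranges overlapped, from 0.0362 to 0.286 for ChIP-bisulfite and from 0.168 to 0.456 for RRBS, and ChIP-bisulfite was the lower in 9 of 10.

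**Figure D1:**
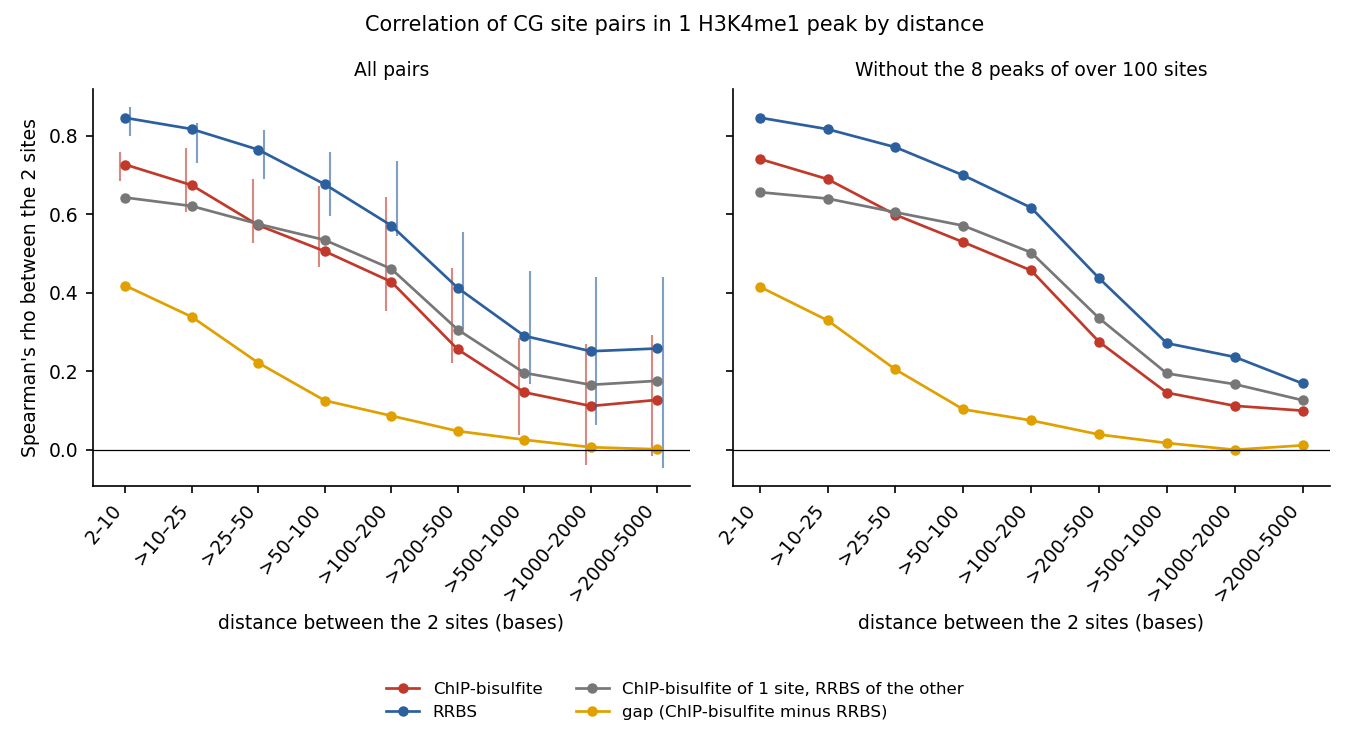
Spearman's rho between the levels of both sites of a pair (y axis) by distance in bases (x axis, 9 bins) for ChIP-bisulfite, RRBS, the cross-assay pair and the gap between the assays; vertical lines in the left panel span the lowest and highest of 10 scaffolds. In the left panel ChIP-bisulfite runs from 0.727 to 0.127 and RRBS from 0.846 to 0.258, and the right panel, without the 8 peaks of over 100 sites, has the same order.

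Leaving out the 8 peaks moved the curves little at short range. ChIP-bisulfite rho was then 0.741 at 2 to 10 bases, 0.457 at over 100 to 200 and 0.145 at over 500 to 1000 bases, and RRBS rho was 0.847, 0.617 and 0.272. At over 2000 to 5000 bases it was 0.100 and 0.169. In windows of 20 bases, ChIP-bisulfite rho was 0.724 up to 20 bases, 0.515 at over 80 to 100, 0.430 at over 140 to 160 and 0.418 at over 180 to 200 bases, and RRBS rho was 0.836, 0.684, 0.594 and 0.577. The largest return upwards in ChIP-bisulfite up to 200 bases was from 0.430 to 0.435, at over 160 to 180 bases, and RRBS had none.

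The absolute difference between the levels of both sites gave the same order of the assays. Outside the 8 peaks, sites 2 to 10 bases apart differed by a mean of 14.4 percentage points in ChIP-bisulfite and 12.2 points in RRBS. At over 100 to 200 bases the differences were 28.0 and 23.1 points, and at over 2000 to 5000 bases 43.5 and 36.9 points. The levels themselves had an SD of 43.1 points in ChIP-bisulfite and 36.9 points in RRBS over the pairs of the last bin, since ChIP-bisulfite has more sites at 0 and 100. A larger difference in points thus goes with a wider scale.

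States of pairs showed where the assays parted. A site was called low at or under 20% and high at or over 80%. Outside the 8 peaks, pairs 2 to 10 bases apart were both low in 53.8% of cases, both high in 19.9%, and low beside high in 7.87% in ChIP-bisulfite. In RRBS the shares were 40.03%, 18.5% and 1.06%. At over 100 to 200 bases low stood beside high in 16.1% of the ChIP-bisulfite pairs and 4.70% of the RRBS pairs, and at over 500 to 1000 bases in 27.9% and 12.9%. A low site next to a high site within 10 bases was thus rare in RRBS and several times as frequent in ChIP-bisulfite. Over all pairs these shares were 7.24% and 1.01% at 2 to 10 bases and 10.95% and 4.18% at over 100 to 200 bases. At over 500 to 1000 bases they were 16.5% and 8.94%. ChIP-bisulfite also had more low and more high sites. Outside the 8 peaks, at over 500 to 1000 bases, 53.7% of its sites were low and 29.7% high. In RRBS 36.0% were low and 27.25% high. The part of these site shares in the pair shares was not tested.

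Close neighbours of low sites were mostly low and those of high sites mostly high. In ChIP-bisulfite 87.7% of the neighbours of a low site at 2 to 10 bases were low, against 61.4% of all sites in these pairs, and 74.3% of the neighbours of a high site were high, against 26.8%. At over 500 to 1000 bases, 59.1% of the neighbours of a low site were low (53.7% of all sites) and 35.4% of those of a high site were high (29.7%). RRBS gave close values for low sites at 2 to 10 bases (87.7% low, 45.7% of all sites) and for high sites (73.2% high, 25.3%). Of the neighbours of sites between the limits, 44.1% at 2 to 10 bases were also between in ChIP-bisulfite and 61.0% in RRBS, against 11.8% and 29.1% of all sites. At over 100 to 200 bases these shares were 23.5% and 47.1%, against 15.9% and 34.8% of all sites.

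**Figure D2:**
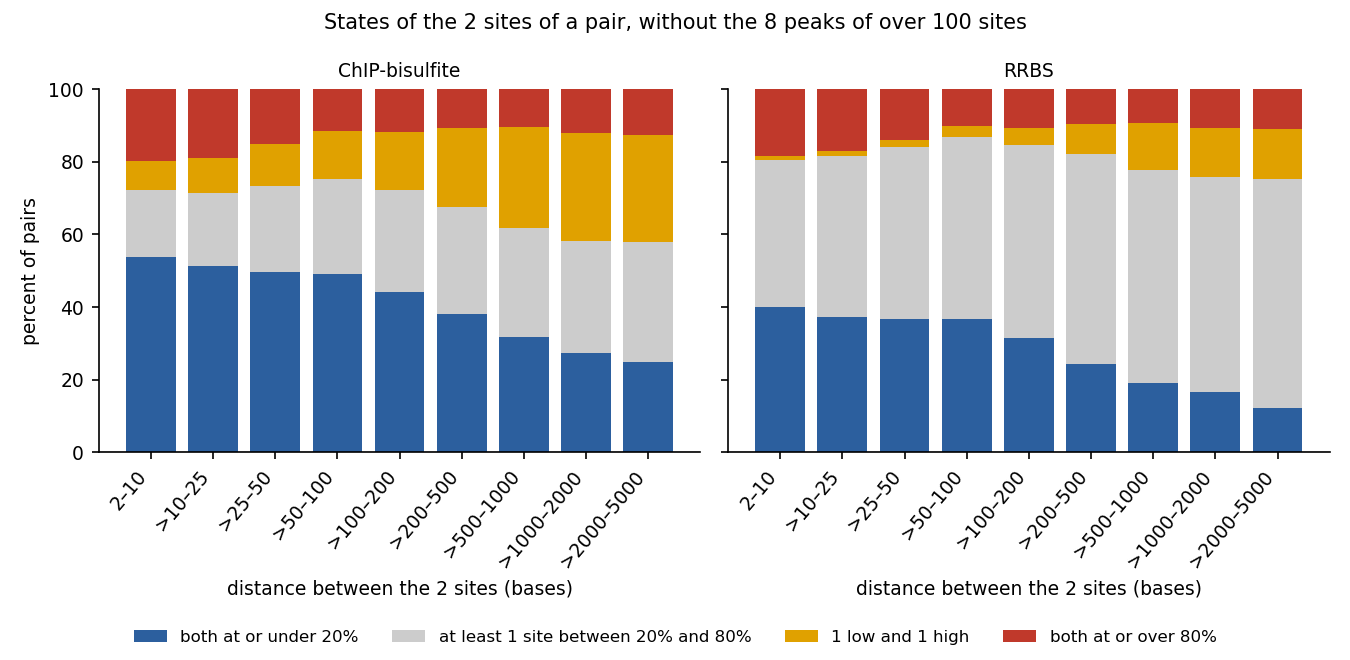
Percent of pairs (y axis) in which both sites were at or under 20%, both at or over 80%, 1 low and 1 high, or in any other state, by distance in bases (x axis), without the 8 peaks of over 100 sites. The share of low beside high rises from 7.87% to 29.3% in ChIP-bisulfite and from 1.06% to 13.75% in RRBS.

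Levels of different assays share no reads, and their curve was flatter. The ChIP-bisulfite level of a site and the RRBS level of its neighbour had a rho of 0.643 at 2 to 10 bases, 0.576 at over 25 to 50, 0.461 at over 100 to 200, 0.196 at over 500 to 1000 and 0.176 at over 2000 to 5000 bases. At the same site the rho between the assays was 0.595 over all 167387 sites. The ChIP-bisulfite curve lay above the cross-assay curve at 2 to 25 bases, was level with it at over 25 to 50 bases (0.572 and 0.576) and lay below it at all longer distances. From 50 bases on, ChIP-bisulfite levels were thus related more closely to the RRBS level of the neighbour than to its ChIP-bisulfite level. This held over all pairs and without the 8 peaks (ChIP-bisulfite 0.529, cross-assay 0.571 at over 50 to 100 bases). Within the 8 peaks the order was the reverse up to 2000 bases (ChIP-bisulfite 0.307, cross-assay 0.247 at over 50 to 100 bases).

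The gap between the assays, ChIP-bisulfite minus RRBS, was shared only over short distances. Its rho between both sites was 0.419 at 2 to 10 bases, 0.339 up to 25, 0.222 up to 50, 0.125 up to 100 and 0.0865 up to 200 bases. It was 0.0474 between 200 and 500 bases, 0.0253 between 500 and 1000 and 0.00111 at over 2000 to 5000 bases. In the 10 scaffolds it ranged from 0.315 to 0.467 at 2 to 10 bases (SD 0.0442) and from -0.0706 to 0.0660 at over 500 to 1000 bases (SD 0.0409), a range that spans 0. Of the neighbours of a site at least 40 points lower in ChIP-bisulfite, 53.7% were also at least 40 points lower at 2 to 10 bases, 26.1% at over 100 to 200 and 21.8% at over 2000 to 5000 bases, without the 8 peaks. The shares of such sites among all sites of these pairs were 15.7%, 16.4% and 19.4%. Of the neighbours of a site at least 40 points higher, 34.3% were also higher at 2 to 10 bases and 10.1% at over 100 to 200 bases, against 6.62% and 7.45% of all sites.

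The strand a site was read on split the short-range pairs. A CG holds a C on each strand, and 2 listed positions 1 base apart can be the Cs of both strands of a CG. The 9829 such cases with no other listed position next to them gave a strand to 19658 sites (11.7% of all), on the assumption that each is a CG, since no genome sequence was used here. A pair of such CGs gives pairs of both kinds from the same sites, so both kinds come from the same places and nearly equal numbers of pairs. Without the 8 peaks, ChIP-bisulfite rho at 2 to 10 bases was 0.772 on the same strand (1486 pairs) and 0.597 on opposite strands (1464 pairs). At over 10 to 25 bases it was 0.684 and 0.560, at over 25 to 50 bases 0.601 and 0.555, and at over 100 to 200 bases 0.370 and 0.366. The likeness of same-strand neighbours thus stood above that of opposite-strand neighbours over the first 25 bases and came close to it from there on.

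RRBS showed a smaller split, with 0.856 on the same strand and 0.776 on opposite strands at 2 to 10 bases. Cross-assay pairs showed nearly none, with 0.646 and 0.645. For the gap the split was wide, with 0.508 on the same strand and 0.132 on opposite strands at 2 to 10 bases, and 0.359 and 0.0644 at over 10 to 25 bases. All listed positions 1 base apart had a ChIP-bisulfite rho of 0.571 over 9801 pairs. This was below that of sites 2 bases apart (0.762 over 3685 pairs, strand not known). In RRBS these values were 0.750 and 0.855. ChIP-bisulfite levels of positions 1 base apart differed by a mean of 25.8 points and those of sites 2 bases apart by 11.8 points. The 9801 pairs rest on 19202 sites, so some sites are in 2 of them. Not all of these pairs are thus the Cs of a single CG.

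The strand split was present in all 10 scaffolds with the most sites. At 2 to 25 bases, over all peaks, the same-strand rho exceeded the opposite-strand rho in 10 of 10 scaffolds for ChIP-bisulfite, with differences from 0.00570 to 0.439 (median 0.152, SD 0.121). It did so in 10 of 10 for RRBS (median 0.0863, SD 0.0767) and in 10 of 10 for the gap (median 0.320, SD 0.346). For cross-assay pairs it was higher in 8 of 10, by a median of 0.0205 (SD 0.0584). These values rest on 46 to 282 pairs per scaffold and strand class. The part of shared reads in the strand split was not tested.

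**Figure D3:**
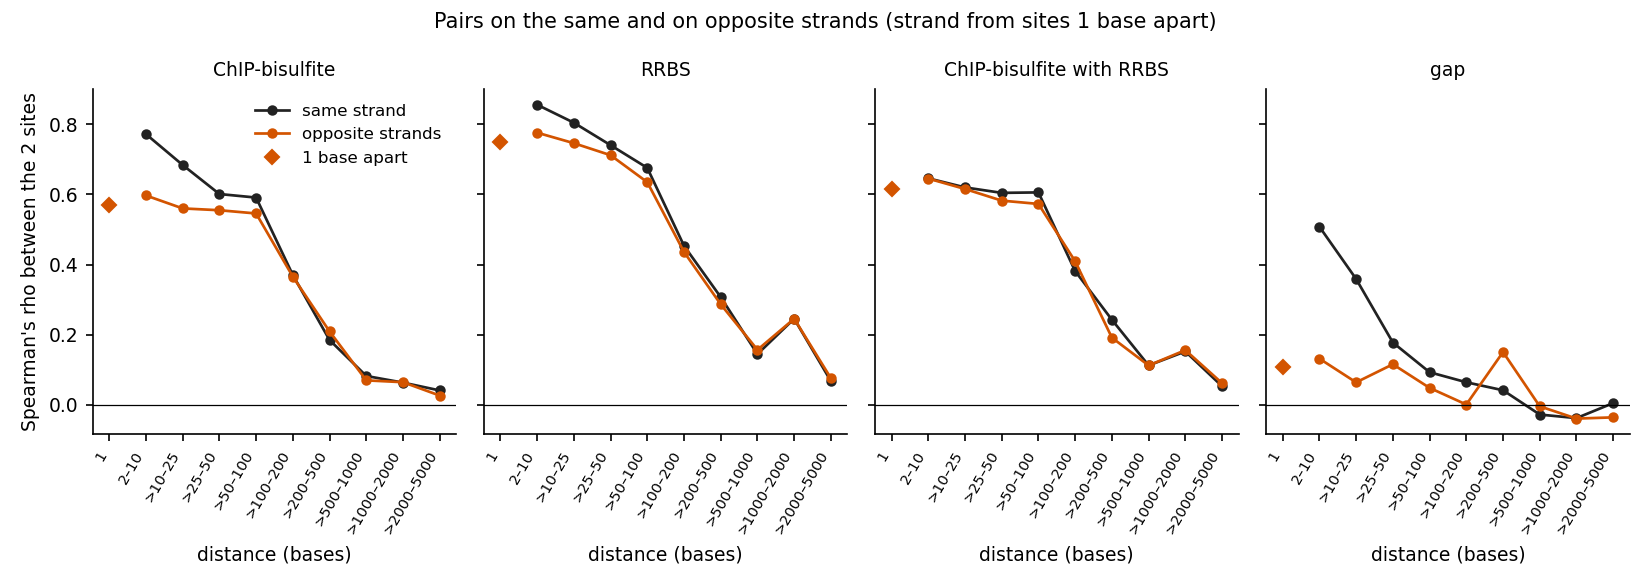
Spearman's rho between both sites of a pair (y axis) by distance in bases (x axis) for pairs on the same strand and on opposite strands. The 4 panels are ChIP-bisulfite, RRBS, cross-assay pairs and the gap, without the 8 peaks of over 100 sites. Diamonds are all listed positions 1 base apart. At 2 to 10 bases the lines stand apart in the gap panel (0.508 and 0.132) and coincide in the cross-assay panel (0.646 and 0.645).

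Pairs near start sites were compared with pairs away from them, to see whether the short-range likeness differs at promoters. Both sites lay within 1000 bases of a listed start site in 357970 pairs and both beyond in 426862, and 111725 pairs with a site on either side were left out. The 8 peaks gave 85.0% of the pairs near start sites and 14.6% of those beyond, and the peak on scaffold_927 alone gave 77.6% of those near. At 2 to 10 bases ChIP-bisulfite rho was 0.661 near start sites (7931 pairs) and 0.724 beyond (20981 pairs), and RRBS rho was 0.765 and 0.830. Without the 8 peaks the values were 0.680 and 0.728 in ChIP-bisulfite, with 0.719 and 0.830 in RRBS. The short-range rho was thus lower near start sites in both assays and both sets of peaks when each pair weighed the same. Without the 8 peaks, the levels had an SD of 31.6 points near and 44.0 beyond in ChIP-bisulfite. In RRBS the SDs were 29.95 and 39.1 points. A narrower range of levels lowers a correlation, so the lower rho need not mean less likeness. The part of this range in the lower rho was not tested. Across the 10 scaffolds ChIP-bisulfite rho near start sites ranged from 0.510 to 0.768 (SD 0.0769), which contains the range beyond, from 0.689 to 0.753 (SD 0.0236). RRBS rho ranged from 0.542 to 0.730 near start sites and from 0.813 to 0.866 beyond, without overlap. With each peak weighing the same, the ChIP-bisulfite rho near start sites was 0.0168 above that beyond, so its order at 2 to 10 bases depended on the weighting.

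From 100 to 1000 bases the order in ChIP-bisulfite depended on the 8 peaks. At over 100 to 200 bases ChIP-bisulfite rho was 0.338 near start sites and 0.429 beyond over all pairs, but 0.465 and 0.422 without the 8 peaks. RRBS rho was 0.393 and 0.567 over all pairs and 0.563 and 0.562 without them. At over 500 to 1000 bases ChIP-bisulfite rho was 0.0972 and 0.138 over all pairs and 0.169 and 0.108 without the 8 peaks. At over 1000 to 2000 bases rho was lower near start sites in both sets of peaks. In ChIP-bisulfite it was -0.0386 near and 0.116 beyond over all pairs, and 0.0335 and 0.0704 without the 8 peaks. In RRBS it was -0.0693 near and 0.217 beyond, and 0.0948 and 0.169 without them. No order between pairs near start sites and beyond held for both sets of peaks in ChIP-bisulfite from 100 to 1000 bases.

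Pairs near start sites differed by fewer points, and most of their sites were low. Without the 8 peaks, ChIP-bisulfite levels near start sites averaged 14.5% (SD 31.6) in pairs 2 to 10 bases apart, against 38.1% (SD 44.0) beyond, and RRBS levels 17.0% (SD 29.95) against 46.9% (SD 39.1). Mean differences within pairs were 8.88 and 16.1 points in ChIP-bisulfite, with 8.27 and 13.3 points in RRBS. At over 500 to 1000 bases the differences were 27.6 and 43.1 points in ChIP-bisulfite, with 26.3 and 35.9 points in RRBS. Both sites were low in 76.6% of ChIP-bisulfite pairs at 2 to 10 bases near start sites and in 47.1% of those beyond. A high site near a start site had a high neighbour at 2 to 10 bases in 65.5% of cases and a low one in 21.0%, against 75.1% and 14.0% beyond.

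**Figure D4:**
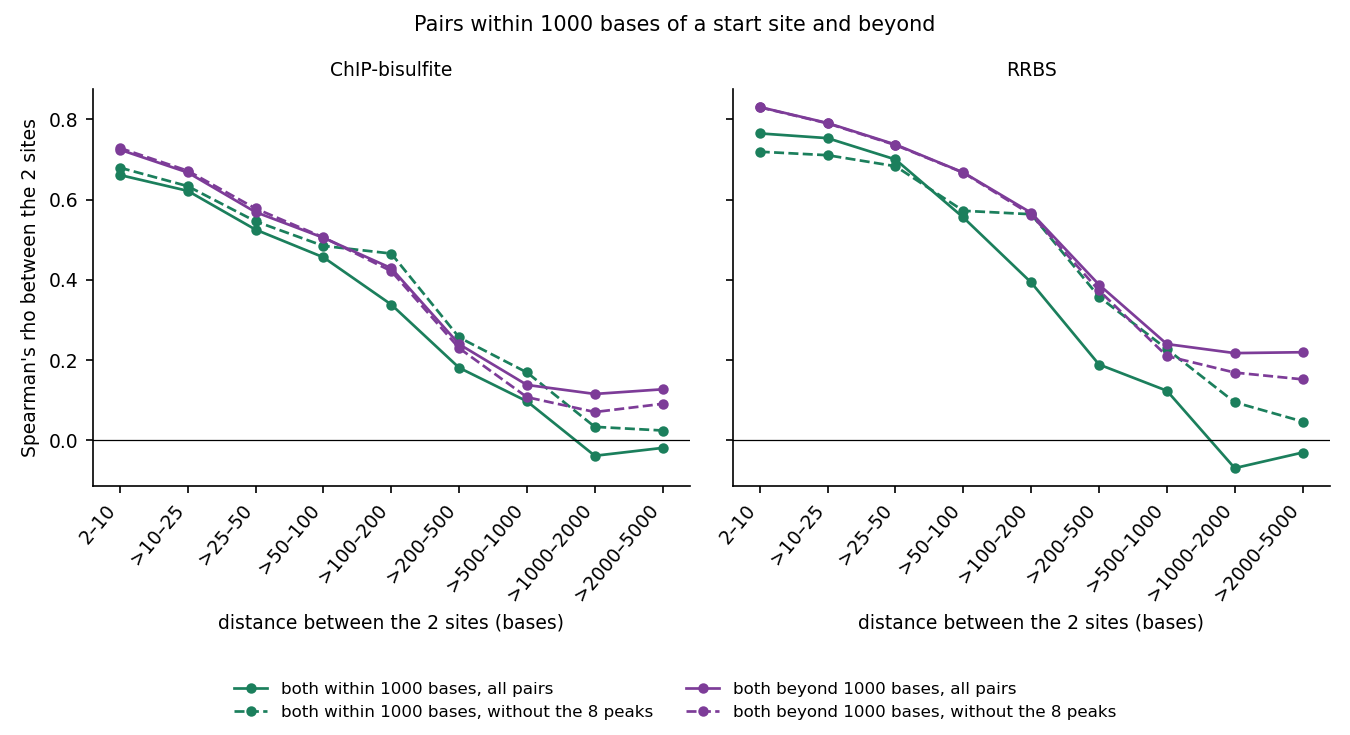
Spearman's rho between both sites of a pair (y axis) by distance in bases (x axis) in ChIP-bisulfite (left) and RRBS (right), for pairs within 1000 bases of a start site and beyond; solid lines are all pairs and broken lines leave out the 8 peaks of over 100 sites. The broken and solid lines of pairs beyond nearly coincide up to 500 bases. In ChIP-bisulfite those of pairs near start sites part from 100 bases on (0.338 over all pairs and 0.465 without the 8 peaks at over 100 to 200 bases). In RRBS they also stand apart at 2 to 10 bases, with 0.765 over all pairs and 0.719 without the 8 peaks.

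Beyond 500 bases little likeness was left once the level of the peak was subtracted. In peaks with at least 5 sites, the mean of the other sites of the peak was subtracted from both sites of a pair. Outside the 8 peaks, the remaining rho was 0.644 in ChIP-bisulfite and 0.719 in RRBS at 2 to 10 bases, 0.268 and 0.357 at over 100 to 200 bases, and 0.119 and 0.137 at over 200 to 500 bases. At over 500 to 1000 bases it was 0.00538 and -0.0183, against 0.152 and 0.275 before subtraction. Both sites of a pair have the same mean subtracted, which by itself adds a shared part to both. Pairs whose sites lay in 2 different peaks were set beside pairs in 1 peak at equal distance. At over 1000 to 2000 bases rho across peaks was 0.242 in ChIP-bisulfite and 0.412 in RRBS, above the 0.111 and 0.251 of pairs in 1 peak. These were 1588 pairs, whose first sites lay in 406 peaks. At over 2000 to 5000 bases rho across peaks was 0.130 and 0.260 (37105 pairs), against 0.127 and 0.258 over all pairs in 1 peak. Outside the 8 peaks, pairs in 1 peak had 0.100 and 0.169. Pairs across peaks thus had no lower rho than pairs in 1 peak at these distances. At over 2000 to 5000 bases their levels differed by a mean of 39.5 points in ChIP-bisulfite and 33.7 in RRBS. All pairs in 1 peak differed by 28.5 and 27.5 points, and those outside the 8 peaks by 43.5 and 36.9 points. Across peaks there were 25 pairs at over 500 to 1000 bases and 1 pair closer than that, so the short range could not be compared in this way.

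Single peaks varied widely around the curve. Among 2458 peaks with at least 10 sites and at least 10 pairs up to 200 bases apart, the mean difference within these pairs had a median of 21.2 points in ChIP-bisulfite and 17.4 points in RRBS. The 10th and 90th percentiles were 0.667 and 43.3 points in ChIP-bisulfite, with 2.86 and 32.0 points in RRBS. It was larger in ChIP-bisulfite in 1462 peaks and smaller in 953. At most 5 points were found in 496 peaks in ChIP-bisulfite, and at least 40 points in 378.

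The peak with the most close pairs, on scaffold_927 from 40 to 10214, held 859 sites and 24929 pairs up to 200 bases apart. Positions are given as the files list them, on a genome build not given in the sources used here. Its median level was low, at 9% in ChIP-bisulfite (lowest 0, highest 68) and 17% in RRBS (0 to 100). Means over windows of 1000 bases reached 28.5% in RRBS. Its sites had a median of 146 RRBS reads (highest 4283), against 17 over all sites. Whether several copies of a repeat are placed on this stretch of the assembly was not tested, so its levels may not be those of 1 locus. Pairs over 50 to 200 bases apart in this peak had a rho of 0.00659 in ChIP-bisulfite and 0.0525 in RRBS, against 0.158 and 0.417 up to 50 bases. The peak on scaffold_537 from 187 to 13940 (310 sites) had a median of 7% in ChIP-bisulfite (highest 95) and 21% in RRBS. A further peak on scaffold_927 from 10897 to 27858 (217 sites) had medians of 6% (highest 100) and 22%. Their ChIP-bisulfite rho was 0.276 and 0.139 up to 50 bases. The fifth, on scaffold_42 from 13200400 to 13286245 (213 sites), had 0.203.

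The peak on scaffold_13 from 48344145 to 48360429 went another way. It held 424 sites, the nearest of them 9 bases from the start site of ENSCPOG00000024729, and its median level was 54.5% in ChIP-bisulfite and 71.5% in RRBS. Its rho was 0.751 in ChIP-bisulfite and 0.803 in RRBS up to 50 bases, 0.750 and 0.615 at over 50 to 200 bases, and 0.367 and 0.276 at over 200 to 1000 bases. In windows of 1000 bases from its first site, the mean level was 86.5% in ChIP-bisulfite and 86.4% in RRBS in the first window (41 sites). It was 73.4% and 71.3% from 7000 bases on (45 sites), 12.9% and 9.89% from 8000 (36 sites), 3.15% and 11.6% from 9000 (85 sites) and 56.3% and 63.2% from 10000 bases (56 sites). Both assays thus placed a low stretch at the same place between methylated flanks. Elsewhere in the peak they parted, with 61.4% in ChIP-bisulfite and 74.7% in RRBS from 3000 bases (23 sites). From 4000 bases the means were 44.6% and 69.9% (25 sites).

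**Figure D5:**
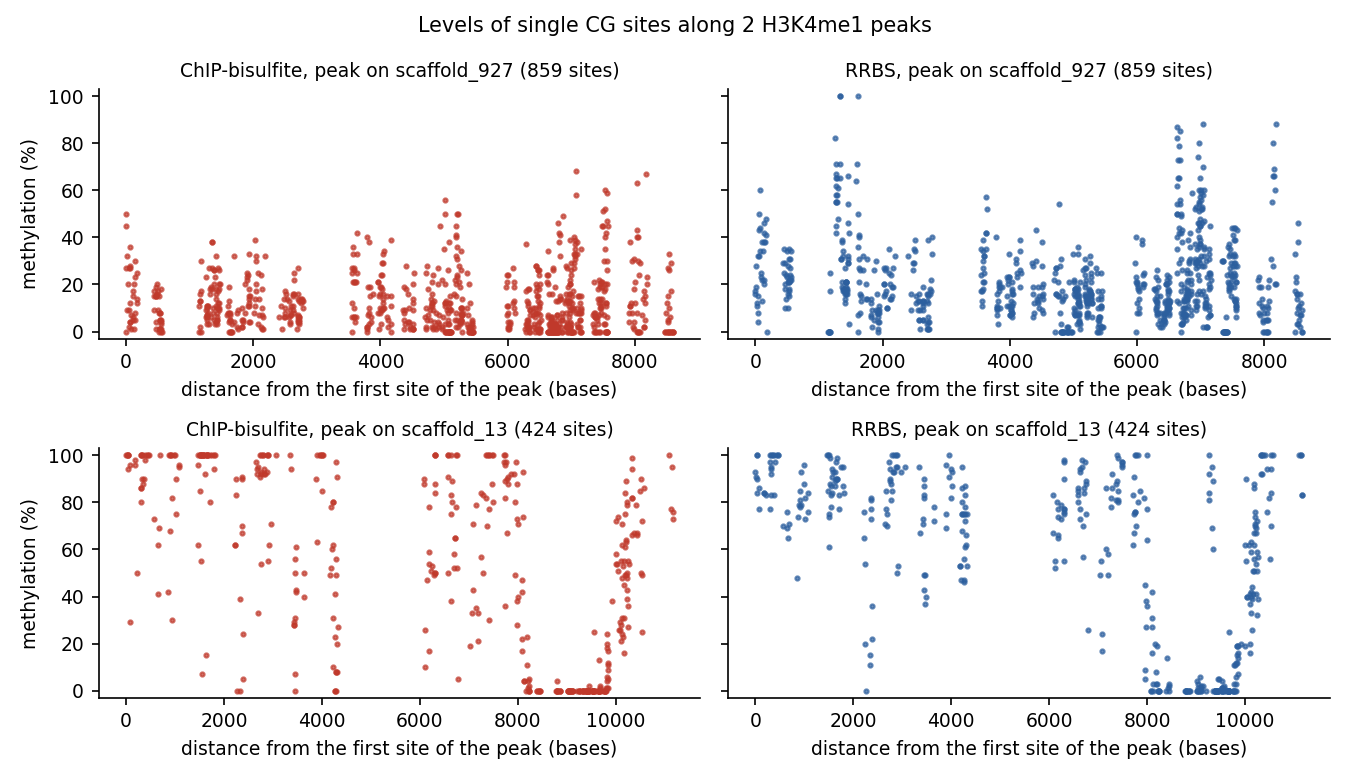
Methylation in percent (y axis) of single CG sites by distance in bases from the first site of the peak (x axis) for the peaks on scaffold_927 (top) and scaffold_13 (bottom), ChIP-bisulfite left and RRBS right; each point is a site. ChIP-bisulfite stays at or under 68% along the first peak, while the second goes from a mean of 73.4% to 12.9% and 3.15% and returns to 56.3% in successive windows of 1000 bases.

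At the ends of the range, the choice of peaks by their ChIP-bisulfite differences makes those differences a description. The 5 peaks with the highest mean difference in ChIP-bisulfite had 62.7 to 66.3 points, over 11 to 18 pairs, while RRBS had 13.5 to 50.8 points in the same pairs. The highest was on scaffold_159 from 626926 to 637824, with 12 sites, the nearest 673 bases upstream of the start site of ENSCPOG00000023269. A run of 4 neighbouring sites of this peak, at 634160, 634171, 634184 and 634201, had ChIP-bisulfite levels of 4%, 100%, 100% and 0%, and RRBS levels of 92%, 92%, 92% and 65% on 13, 13, 26 and 26 reads. ChIP-bisulfite thus switched between low and high along this run, where RRBS did not fall below 65%. The other 4 lay on scaffold_15 (27229674 to 27272194), scaffold_61 (9164910 to 9175749), scaffold_31 (5118362 to 5140643) and scaffold_95 (2896018 to 2927399).

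The 5 peaks with the lowest mean difference were at 0% at every measured site in ChIP-bisulfite. They held 21 to 35 sites over spans of 1314 to 4681 bases. The one with the most close pairs lay on scaffold_39 from 13020484 to 13026320, with 35 sites, the nearest 186 bases upstream of the start site of ENSCPOG00000008252, and RRBS levels from 0% to 32% (mean 3.23%). The others were on scaffold_32 (12370254 to 12379016), scaffold_1 (44735503 to 44742599 and 58656312 to 58660859) and scaffold_67 (5433980 to 5438726), with mean RRBS levels of 0.762% to 5.60%. None of these 5 peaks overlapped a Pol II PS5 peak, a site of RNA polymerase II phosphorylated as at initiation. Of the 5 peaks with the highest differences 4 overlapped one, as did 1126 of the 2458 peaks (45.8%) these were chosen from. These sets also differ in level and width, and 5 peaks are too few to compare.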

How the data were processed

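The members, bins and lists were chosen with earlier results of these data known. Levels were deposited by the authors as whole percent per CG site, per the file headers, pooled over animals. RRBS reads per position were deposited as counts by the authors. ChIP-bisulfite reads per peak are deposited counts too, beside the number of C positions. The authors' deposited scores of peaks and transcripts were not used as values; peak lists served as positions. The submitters' processing notes name Bismark 0.12.5, methylKit and MACS2 for ChIP-bisulfite, and BSMAP 2.74 and methylKit for RRBS, without roles; the aligners differ between the assays. The table of 241970 lines was reduced to distinct sites, each with its nearest listed start site, and each site was placed in its H3K4me1 peak (start included, end not). All pairs 2 to 5000 bases apart in a peak were formed in 9 bins. Each pair entered in both orders, and rho was computed with mid-ranks, with no p-value (Python 3.11.15, NumPy 2.4.6, pandas 2.3.3). The spread given is that over the 10 scaffolds with the most sites. Named peaks were the 5 with most pairs up to 200 bases, and, among peaks with at least 10 sites and 10 such pairs, the 5 with the highest and the 5 with the lowest mean ChIP-bisulfite difference. Gene lists fixed by symbol could not be matched to the identifiers and gave no result. A split by strand from a genome was planned; strand from positions 1 base apart was used in its place, after seeing the data. The pair and curve computations were tested on simulated data.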

Additional observations from a re-analysis of the deposited data

How the results depend on the processing

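Correlations were recomputed under other settings, and a value counted as moved if it changed by more than the SD over 10 scaffolds (for shares of pairs, the 95% binomial interval, which treats pairs as independent). Pearson's correlation, 1 site per dyad, leaving out the scaffold with the most sites or the 1% of sites with the most RRBS reads, and start site limits of 500 or 2000 bases moved none of the values at 2 to 10, over 100 to 200 and over 500 to 1000 bases, nor did stricter peaks in the within-peak part, the weighting of pairs across peaks or the settings tried on the strand split. With each peak weighing the same, RRBS rho at 2 to 10 bases was 0.823 and cross-assay rho 0.607, and the ChIP-bisulfite and RRBS differences between pairs near start sites and beyond at over 100 to 200 bases were 0.112 and 0.109, against -0.0907 and -0.174 as reported. These differences were 0.0729 and -0.00774 without the peak with the most pairs; the RRBS difference was 0.00100 without the peaks of over 100 sites (both settings were added after seeing the data) and -0.0123 in peaks of at most 20 sites. The sign of the ChIP-bisulfite start site difference also turned with Pearson's correlation (0.00164), 1 site per dyad (0.0310), peaks of at most 20 sites (0.0691), a limit of 2000 bases (0.000832) and without the peaks of over 100 sites (0.0438), each by less than the spread over scaffolds. With at least 20 RRBS reads, RRBS rho was 0.874 at 2 to 10 and 0.503 at over 100 to 200 bases. Cross-assay rho was then 0.385 at over 100 to 200 bases. The start site differences were then -0.297 (ChIP-bisulfite) and -0.436 (RRBS) at over 100 to 200 bases. At over 500 to 1000 bases the ChIP-bisulfite difference was -0.211. The setting kept the peak with the most pairs, whose sites had a median of 146 RRBS reads against 17 over all sites. Without the peaks of over 100 sites, pairs were grouped by their fewest RRBS reads, in bins starting at 10, 15, 25 and 50. RRBS rho at over 100 to 200 bases was 0.587, 0.648, 0.698 and 0.578 in these bins. The values with at least 20 reads thus need not hold outside the peaks of over 100 sites. Without ChIP-bisulfite levels of 0 or 100, ChIP-bisulfite rho was 0.597 at 2 to 10 and 0.255 at over 500 to 1000 bases, RRBS rho 0.728 and 0.360 at 2 to 10 and over 100 to 200 bases, cross-assay rho 0.309 and 0.331, and gap rho 0.542 at 2 to 10 bases. The share of low beside high at 2 to 10, over 100 to 200 and over 500 to 1000 bases was 8.73%, 13.7% and 19.3% in ChIP-bisulfite, with 2.51%, 8.61% and 14.5% in RRBS with limits of 30% and 70%. With at least 20 RRBS reads, and the peaks of over 100 sites kept, it was 6.48%, 5.82% and 6.56% in ChIP-bisulfite. In RRBS it was then 0.314%, 2.52% and 3.59%. It was 7.70%, 14.7% and 24.0% in ChIP-bisulfite without the peak with the most pairs and 7.87%, 16.1% and 27.9% without the peaks of over 100 sites, and in RRBS 4.80% and 12.4%, and 4.70% and 12.9%, at the longer distances. The cause of these moves was not tested. No paired analysis was possible because the deposited values pool the animals, which also left no replicate to leave out. ChIP-bisulfite reads per site were not used here, so its curve could not be read at equal depth.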

Other observations

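Without the 8 peaks of over 100 sites, H3K4me1 peaks holding a peak of Pol II PS5 had a ChIP-bisulfite rho of 0.751 at 2 to 10 bases (9218 pairs), 0.494 at over 100 to 200 and 0.129 at over 500 to 1000 bases. Peaks without Pol II PS5 had 0.736 (16809 pairs), 0.431 and 0.155. In RRBS the values were 0.843, 0.619 and 0.214 with and 0.844, 0.613 and 0.308 without. By width, peaks of up to 2000 bases had a ChIP-bisulfite rho of 0.697 at 2 to 10 bases (1016 pairs), peaks of over 5000 to 10000 bases 0.753 (8454 pairs) and peaks of over 10000 bases 0.719 (8369 pairs). None of these differences was tested.

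Pairs on both sides of a start site and over 500 to 1000 bases apart had a ChIP-bisulfite rho of 0.169 over 3995 pairs, and pairs on 1 side of it 0.149 over 2343 pairs. At 2 to 10 bases, pairs upstream of a start site had 0.662 and pairs downstream 0.688.

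Sites with no other measured site between them had a higher rho than sites with one between at 2 to 10 bases (0.742 and 0.730 in ChIP-bisulfite, 0.845 and 0.836 in RRBS) and a lower one in each longer bin. At over 100 to 200 bases their ChIP-bisulfite rho was 0.374 over 7859 pairs and 0.475 over 20023 pairs, and RRBS rho 0.499 and 0.636. The mean ChIP-bisulfite levels of these pairs were 42.1% and 29.2%. By the fewest RRBS reads in a pair, RRBS rho at 2 to 10 bases was 0.829 with 10 to 14 reads, 0.852 with 15 to 24, 0.874 with 25 to 49 and 0.882 with 50 or more, and ChIP-bisulfite rho was 0.744, 0.735, 0.735 and 0.758.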
